A study of Mus musculus with 4 samples.

Results

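The 10 genes described here encode glycoproteins, small proteoglycans and a cross-linking enzyme of the extracellular matrix, and they were read through 16 probe sets of the Mouse 430 2.0 array. The members were chosen by probe set number, and the list of numbers came with a gene symbol for each: decorin (Dcn), lumican (Lum), biglycan (Bgn), fibronectin (Fn1), tenascin-C (Tnc), periostin (Postn), Sparc, the thrombospondins Thbs1 and Thbs2, and lysyl oxidase (Lox). All 16 were found among 45037 tested probe sets. The deposited table does not itself pair probe sets with genes, so the pairing was taken as given. Of the genes, 6 have 2 probe sets and 4 have 1.

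The arrays held RNA of mouse fibroblasts of strain C57BL/6 cultured in DMEM. Wild type cells were put on 2 arrays, and SIN1 KO cells, whose SIN1 gene was ablated, on 2 more. SIN1 is a subunit of mTOR complex 2, a kinase complex that acts on AKT. The labels name the cells both MEFs and murine epithelial fibroblasts and note an altered metabolism in the knock-out. They name no clone, line or embryo, so the p-values rest on array-to-array spread alone, and that spread may be technical. The SIN1 transcript and the epithelial and fibroblast marker genes were not analysed here, because no table used here pairs their probe sets with genes.

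Fibroblasts secrete most of these products. Fibronectin is assembled by integrins into a fibrillar network on which other matrix proteins are laid down. Decorin, biglycan and lumican are small leucine-rich proteoglycans that bind collagen fibrils, and lysyl oxidase cross-links collagen and elastin. Tenascin-C, periostin, Sparc and the thrombospondins are matricellular proteins, which modulate how cells attach to and remodel the matrix.

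Both SIN1 KO arrays lay below both wild type arrays for every probe set of Fn1, Sparc, Bgn, Thbs1 and Thbs2, 10 of the 16 probe sets. Among all 45037 probe sets, 14.9% showed that order. No member had both SIN1 KO arrays above both wild type arrays, an order seen in 20.4% of all probe sets (3.27% with a mean difference of at least 1 log2 unit). Of the 10, 7 were also lower by at least 1 log2 unit, which is 2-fold, in the group means (probe sets of Bgn, Thbs1 and Thbs2 and 1 of Fn1), against 4.12% of all probe sets. Within the brighter 22519 probe sets (mean level no lower than the median), which hold 12 of the members, the shares were 17.3% lower and 20% higher, against 10 and 0 members. Dcn and Tnc were above background on all arrays but their genotypes overlapped, and Lum, Postn and Lox did not exceed background on any array. No member passed limma's test after Benjamini-Hochberg adjustment over all probe sets at 0.05 (background 0% in either direction), and the lowest adjusted p of a member was 0.521. At an unadjusted p under 0.05, 4 members were lower in SIN1 KO (both probe sets of Fn1 and of Thbs2) against 2.57% of all probe sets, and 0 were higher against 3%. Probe sets of 1 gene share their target gene, so the 10 stand for 5 genes. The members were chosen with earlier results of these data known. Setting their counts beside the shares of all probe sets therefore describes the list and does not test it. In RNA from whole cultures, fewer cells of a type and less RNA per cell cannot be told apart.

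**Figure D1:**
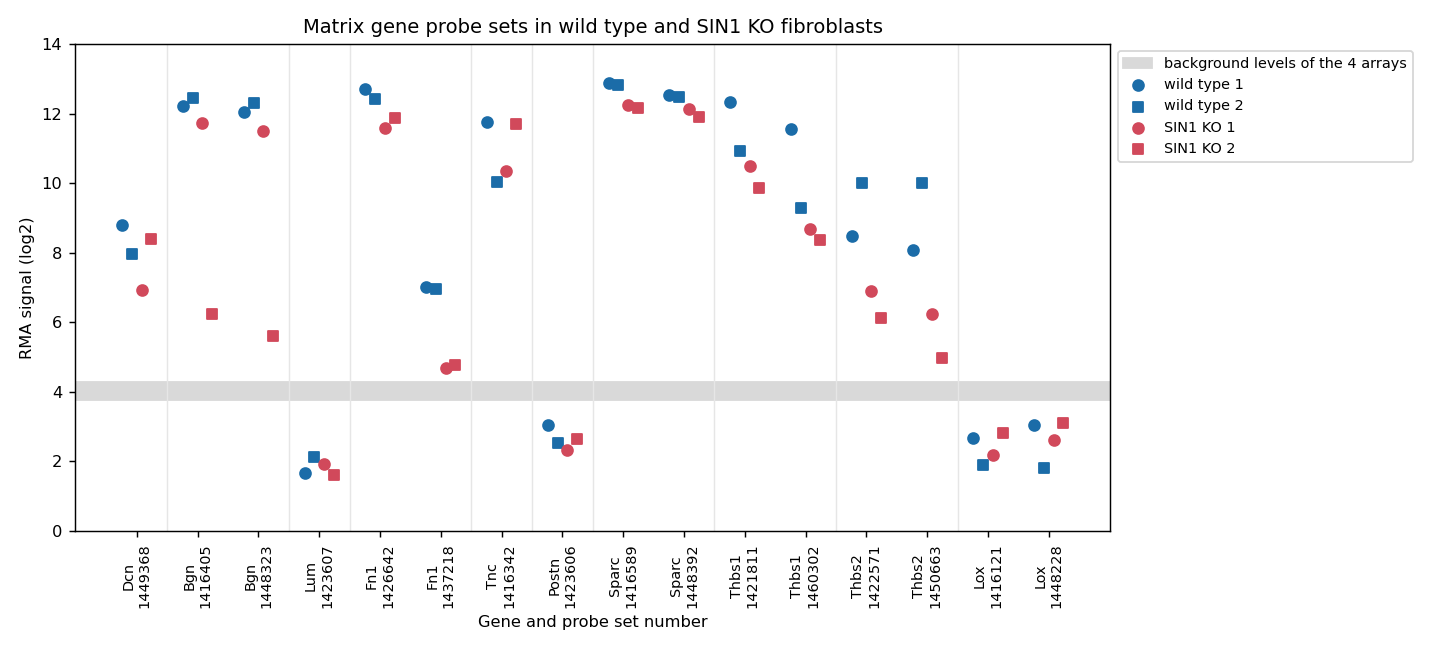
RMA signal (log2, vertical axis) of the 16 probe sets, by gene and probe set number, on the wild type (blue) and SIN1 KO (red) arrays, with circles for replicate 1 and squares for replicate 2; the grey band spans the background levels of the 4 arrays, 3.75 to 4.27. Both red points lie below both blue points for Bgn, Fn1, Sparc, Thbs1 and Thbs2, and the points of Lum, Postn and Lox lie below the band.

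For 5 of the 10 genes the RefSeq promoter table (GRCm38.p6) held sequence upstream of an annotated start: Bgn, Postn, Sparc, Thbs2 and Tnc. The 250 bases before the start are printed for Bgn, Sparc and Thbs2, whose SIN1 KO arrays were both lower, and for Tnc, whose genotypes overlapped. Capitals mark matches, on either strand, to 5 short motifs. The motif of AP-1 was searched as TGANTCA and that of TEAD factors as GGAATG. The GC box was searched as GGGCGG. FoxO factors were represented by GTAAACA, and the TATA box by TATAAA. The bases outside any match are in lower case. The Bgn stretch is chrX:73483351-73483600 (plus strand), that of Sparc chr11:55420081-55420330 (minus strand), that of Thbs2 chr17:14694263-14694512 (minus strand) and that of Tnc chr4:64047016-64047265 (minus strand).
Bgn: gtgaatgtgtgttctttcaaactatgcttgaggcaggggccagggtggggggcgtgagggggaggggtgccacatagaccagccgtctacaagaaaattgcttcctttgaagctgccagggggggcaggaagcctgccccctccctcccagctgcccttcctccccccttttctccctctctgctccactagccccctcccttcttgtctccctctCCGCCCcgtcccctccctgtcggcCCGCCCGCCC
Sparc: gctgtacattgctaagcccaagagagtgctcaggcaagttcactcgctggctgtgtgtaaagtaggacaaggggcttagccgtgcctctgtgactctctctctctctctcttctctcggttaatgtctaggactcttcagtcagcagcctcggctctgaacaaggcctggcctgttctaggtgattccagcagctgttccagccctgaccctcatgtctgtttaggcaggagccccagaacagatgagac
Thbs2: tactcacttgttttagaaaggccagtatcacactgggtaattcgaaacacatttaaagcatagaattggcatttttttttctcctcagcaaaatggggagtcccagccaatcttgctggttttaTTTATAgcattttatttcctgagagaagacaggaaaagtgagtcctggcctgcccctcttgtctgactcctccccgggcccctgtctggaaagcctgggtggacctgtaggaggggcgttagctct
Tnc: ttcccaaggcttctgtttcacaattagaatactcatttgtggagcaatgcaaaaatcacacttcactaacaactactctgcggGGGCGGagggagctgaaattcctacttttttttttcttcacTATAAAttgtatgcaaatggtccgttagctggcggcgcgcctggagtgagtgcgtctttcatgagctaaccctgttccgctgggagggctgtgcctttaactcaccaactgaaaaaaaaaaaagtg
These letters differ from gene to gene. Bgn had 3 matches to the GC box, all within 34 bases of the start and 2 of them overlapping, and its stretch was 64.4% G and C against a median of 52.4% over all promoters of that length. The GC box was found in 32.7% of the 32851 promoters. Thbs2 (on the opposite strand) and Tnc each had a TATA box match, in both cases 126 to 121 bases before the start. That motif was found in 12.4% of all promoters. At an annotated start of Postn, not printed here, a TATA box match lay 26 to 21 bases before the start. Whether any of these matches acts as a TATA box was not tested. Tnc also had 1 GC box match. A second annotated start of Tnc, whose stretch overlaps the printed one, held the same matches. No match to any of the 5 motifs was found in the Sparc stretch. None to AP-1, TEAD or FoxO was found in the 4 printed stretches, motifs found in 6.75%, 12.6% and 3.17% of all promoters. As Sparc had no match, the 3 printed genes with lower SIN1 KO arrays had no searched motif in common. Fn1 and Thbs1, whose SIN1 KO arrays were also lower, had no promoter sequence to search.

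Among the small leucine-rich proteoglycans, Bgn showed the widest gap between single arrays. Biglycan carries glycosaminoglycan chains and binds collagen and growth factors. Probe set 1416405_AT read 12.23 and 12.44 (log2) in wild type replicates 1 and 2, 11.72 in SIN1 KO replicate 1 and 6.24 in SIN1 KO replicate 2. Probe set 1448323_A_AT read 12.03 and 12.32 in wild type, then 11.50 and 5.60 in SIN1 KO, here and from here on in the order replicate 1, replicate 2. The wild type arrays and SIN1 KO 1 were close together and SIN1 KO 2 stood far below them, on both probe sets. The log2 differences of the group means were -3.35 (SE 1.87, 95% interval -8.36 to 1.66) and -3.63 (SE 2.01, 95% interval -9.02 to 1.77). That is 10.2-fold and 12.4-fold lower in SIN1 KO, but both intervals hold a lower and a higher level. Both differences had an adjusted p of 0.82 in limma's fit. These means describe neither SIN1 KO array. Without SIN1 KO 2 the differences were -0.62 and -0.68, and without SIN1 KO 1 they were -6.09 and -6.58. Between the SIN1 KO arrays themselves the signal differed 44.5-fold and 59.7-fold. Of all 45037 probe sets, 11 had SIN1 KO 1 above SIN1 KO 2 by at least as much as 1416405_AT, and both Bgn probe sets are among the 11. Even in SIN1 KO 2 the signal was above background, by 1.97 and 1.32 log2 units. SIN1 KO 2 also had the highest background level of the 4 arrays, 4.27 against 3.75 to 4.05, and the most probe sets at or below it, 49.5% against 43.5% to 46.8%. The part of these in the Bgn values was not tested.

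Dcn encodes decorin, the relative of biglycan that binds collagen fibrils and limits their lateral growth. Probe set 1449368_AT read 8.79 and 7.97 in wild type, against 6.92 and 8.40 in SIN1 KO. SIN1 KO 2, the array with the lowest Bgn signal, lay between the wild type arrays for Dcn, so the genotypes overlapped and the 2 proteoglycan transcripts did not order the arrays alike. The log2 difference was -0.72 (SE 0.62, 95% interval -2.39 to 0.95, limma adjusted p = 0.826). Without SIN1 KO 1 it was 0.02. That interval holds both a 2-fold lower and a higher level in SIN1 KO.

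Lum, which encodes lumican, the keratan sulfate proteoglycan of cornea and other connective tissues, was at or below background throughout. Probe set 1423607_AT read 1.65 and 2.11 in wild type, against 1.93 and 1.62 in SIN1 KO. Background here is the highest of the array's 27 Bacillus subtilis control probe sets. The Lum values minus that level were -2.65 to -1.80 log2 units, so no difference between genotypes can be read from them.

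Fn1 had the widest separation between the genotypes among the members. Fibronectin links integrins to collagens and other matrix proteins. Probe set 1437218_AT read 7.02 and 6.95 in wild type, against 4.67 and 4.77 in SIN1 KO. The SIN1 KO arrays were only just above background, by 0.50 log2 units at the least, and the genotypes were separated by 2.18 log2 units between the lowest wild type and the highest SIN1 KO array. The log2 difference was -2.26 (SE 0.25, 95% interval -2.92 to -1.61), 4.80-fold lower in SIN1 KO. The pooled SD within a genotype was 0.06. A gap at least this large in that direction was found in 32 of the 45037 probe sets, 0.0711%. The unadjusted p in limma's fit was 0.000492 and the adjusted p 0.521, the lowest of the list. Leaving out any array kept the difference between -2.31 and -2.22.

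The second Fn1 probe set, 1426642_AT, read 12.72 and 12.43 in wild type, against 11.59 and 11.86 in SIN1 KO. It ordered all 4 arrays as the first did but with a smaller difference, -0.85 (SE 0.28, 95% interval -1.59 to -0.10, limma adjusted p = 0.82), 1.80-fold. The 2 differences were 1.42 log2 units apart, the largest disagreement among the 5 genes with 2 probe sets above background. Which part of the transcript each probe set reads is not given in the sources used here. The direction was thus shared by the Fn1 probe sets, and the size depended on the probe set.

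Sparc had a smaller difference, also with little spread. Its product, also called osteonectin, binds collagen and calcium and reduces cell adhesion. Probe set 1416589_AT read 12.89 and 12.83 in wild type, against 12.26 and 12.15 in SIN1 KO, and 1448392_AT read 12.53 and 12.48 in wild type, against 12.13 and 11.90 in SIN1 KO. The wild type values of each probe set were nearly the same, and both SIN1 KO values lay under them. The log2 differences were -0.66 (SE 0.25, 95% interval -1.32 to 0.003) and -0.49 (SE 0.25, 95% interval -1.17 to 0.19). That is 1.58-fold and 1.40-fold, with limma adjusted p of 0.82 for both. Both intervals reach past no difference. The SE is moderated towards the spread of all probe sets, while the pooled SDs within a genotype were 0.06 and 0.11. The hybridisation controls, transcripts added at hybridisation, were themselves lower in SIN1 KO (11.41 and 11.54) than in wild type (11.85 and 11.73). With the arrays scaled to those controls, every difference moved up by 0.32. The Sparc differences were then -0.34 and -0.17, the arrays of 1448392_AT overlapped between genotypes, and 1426642_AT of Fn1 stood at -0.52. Under the same scaling the median of all probe sets moved from 0.04 to 0.36.

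**Figure D2:**
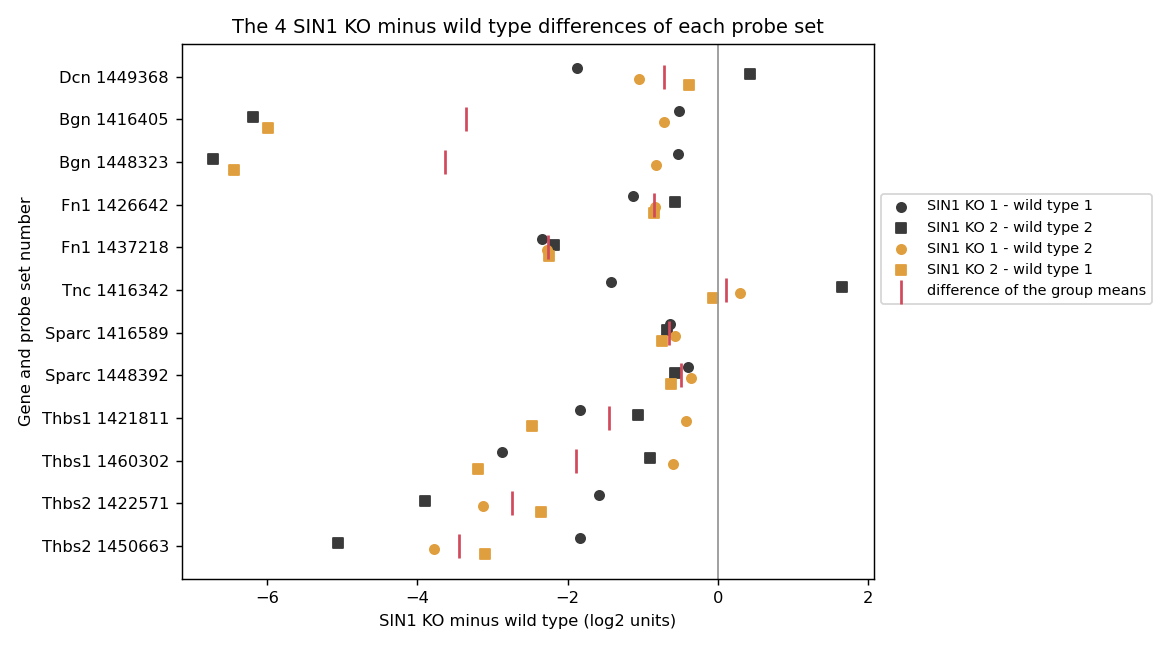
The 4 differences between a SIN1 KO array and a wild type array (log2 units, horizontal axis) for each of the 12 probe sets above background on all arrays; black marks arrays of the same replicate number, orange those of different number, and the red bar is the difference of the group means. The points of Fn1 1437218 and Sparc lie close together, those of Bgn fall into a pair per probe set between -0.82 and -0.51 and a pair between -6.72 and -5.98, and those of Tnc lie on both sides of 0.

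Both thrombospondins were lower in SIN1 KO, and the wild type arrays disagreed on them in opposite ways. Thrombospondin 1 activates latent TGF-beta and inhibits the growth of blood vessels, and thrombospondin 2 shares the second role and affects collagen fibril assembly. Probe set 1421811_AT of Thbs1 read 12.33 and 10.91 in wild type, against 10.49 and 9.85 in SIN1 KO. Probe set 1460302_AT of Thbs1 read 11.56 and 9.28 in wild type, against 8.69 and 8.38 in SIN1 KO. Wild type 1 stood alone at the top on both, and wild type 2 was nearer to the SIN1 KO arrays than to wild type 1. The log2 differences were -1.45 (SE 0.58, 95% interval -3.00 to 0.10) and -1.89 (SE 0.81, 95% interval -4.08 to 0.29). That is 2.73-fold and 3.71-fold, each with a limma adjusted p of 0.82. Both intervals hold a lower and a higher level in SIN1 KO, unlike those of Thbs2 below. Without wild type 1 the differences were -0.74 and -0.75, and without wild type 2 they were -2.16 and -3.03.

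For Thbs2 the higher wild type array was replicate 2. Probe set 1422571_AT read 8.48 and 10.01 in wild type, against 6.89 and 6.12 in SIN1 KO. Probe set 1450663_AT read 8.06 and 10.01 in wild type, against 6.23 and 4.96 in SIN1 KO. All SIN1 KO values were at least 1.59 and 1.84 log2 units under the lower wild type array, gaps reached by 0.193% and 0.131% of all probe sets. The log2 differences were -2.74 (SE 0.63, 95% interval -4.43 to -1.05) and -3.44 (SE 0.82, 95% interval -5.65 to -1.24), or 6.69-fold and 10.9-fold. Their unadjusted p in limma's fit was 0.00984 and 0.0114, and the adjusted p 0.82 for both. Left-out arrays kept the differences between -3.51 and -1.97 and between -4.42 and -2.47. The wild type arrays themselves differed 2.90-fold and 3.86-fold on Thbs2, replicate 2 being higher, and 2.67-fold and 4.86-fold on Thbs1, replicate 1 being higher. Thbs1 and Thbs2 therefore shared the order of the SIN1 KO arrays, with SIN1 KO 2 the lowest on all 4 probe sets, and not that of the wild type arrays.

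Tnc, unlike Sparc, Thbs1 and Thbs2, showed no separation of the genotypes. Tenascin-C is a large hexameric glycoprotein that interferes with attachment to fibronectin. Probe set 1416342_AT read 11.76 and 10.04 in wild type, against 10.33 and 11.70 in SIN1 KO. Wild type 1 and SIN1 KO 2 were high and wild type 2 and SIN1 KO 1 were low, so the spread within each genotype, 3.29-fold in wild type and 2.57-fold in SIN1 KO, exceeded the difference between them. The log2 difference was 0.12 (SE 0.78, 95% interval -1.98 to 2.21, limma adjusted p = 0.984). It was -0.74 without wild type 2, -0.57 without SIN1 KO 2 and 0.97 without wild type 1. The interval allows a 2-fold difference in either direction.

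Periostin, which promotes collagen cross-linking and is made by fibroblasts of the periosteum and of healing tissue, and lysyl oxidase, the copper enzyme that starts collagen and elastin cross-linking, had no signal above background. Postn (1423606_AT) read 3.04 and 2.52 in wild type, against 2.33 and 2.65 in SIN1 KO. Lox read 2.67 and 1.89 in wild type, against 2.18 and 2.83 in SIN1 KO on 1416121_AT. On 1448228_AT it read 3.03 and 1.82 in wild type, against 2.61 and 3.11 in SIN1 KO. All 12 of these values lay below the background level of their array, by at least 1 log2 unit, and the genotypes overlapped on each probe set. Whether the cells lack these transcripts or the probe sets did not detect them was not tested.

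Over the list, the median log2 difference was -0.78 for the 16 probe sets, against 0.04 over all 45037. As the members were chosen with earlier results of these data known, this contrast only describes the list. Of the 16, 13 had a lower mean in SIN1 KO and 3 a higher one, those of Tnc and, at background, Lox. The 13 include Lum and Postn, which were at background too. Among the 12 members above background on all arrays, 11 were lower and 1 higher. Over all probe sets 20747 were lower and 24275 higher. All 6 genes with 2 probe sets, Lox at background included, had both probe sets order the 4 arrays alike. The array order was not the same for all genes: Sparc and Thbs1 shared one full order, and Bgn and Thbs2 another. SIN1 KO 2 was the lowest array for Bgn, Sparc, Thbs1 and Thbs2, SIN1 KO 1 for Fn1 and Dcn, and wild type 2 for Tnc. With 2 arrays against 2, a two-sided exact permutation test of a single gene cannot give a p below 0.333, so none is reported.

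**Figure D3:**
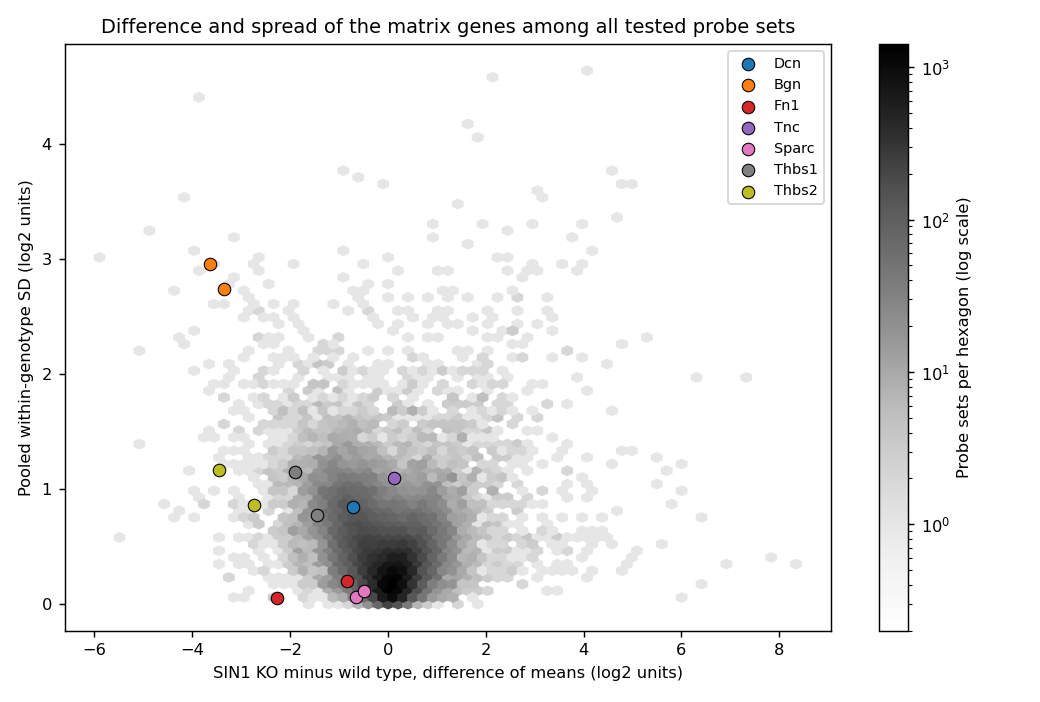
Difference of the group means (SIN1 KO minus wild type, log2 units) against the pooled SD within a genotype (log2 units) for all 45037 tested probe sets, shaded by their number per hexagon on a log scale, with the 12 members above background as coloured points. Fn1 1437218 lies at -2.26 with an SD of 0.06, whereas the Bgn points lie at -3.35 and -3.63 with SDs of 2.74 and 2.95.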

How the data were processed

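The deposited table holds log2 values per probe set that the authors made with RMA (background correction, normalization between arrays and summary of probes), per the submitters' processing notes; the log2 scale was taken from the range, 0.80 to 14.17. Its version and settings: not given in the sources used here. RMA pulls arrays to one distribution, so a shift shared by most transcripts would not be seen.

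Groups came from the sample titles. The 64 control probe sets were left out, and the genotypes were compared over the other 45037 with limma 3.58.1 in R 4.3.3 (lmFit, eBayes without trend, Benjamini-Hochberg over all probe sets, threshold 0.05). The fit had 2 residual degrees of freedom plus 2.38 from the prior, and it was tested on simulated data. There it called hardly any differences of the size seen in most members, so an adjusted p above the threshold says little about them. The median SE was 0.33: the number of arrays limits the precision. Background was set per array at the highest of its 27 Bacillus subtilis controls. Every member is named, as the rule for named genes asked. The lists of other matrix genes and of marker genes were not used, since no table used here pairs probe sets with genes. The members and lists were chosen with earlier results of these data known. Alternatives covered scaling, filter, variance prior, threshold, background, block and left-out arrays. Promoter sequences came from RefSeq (GRCm38.p6). Figures used matplotlib 3.10.9 in Python 3.11.15.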

Additional observations from a re-analysis of the deposited data

How the results depend on the processing

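The 3 scalings and the left-out arrays, which alone can move a difference, gave 84 values for the 12 members above background; 81 kept their direction and 3 changed sign, all when an array was left out. Dcn ranged from -1.46 to 0.0217 and Tnc from -0.74 to 0.97 when each array was left out. None of the alternatives passed the threshold (adjusted p 0.304 to 1), which says nothing of stability, since a design of this size could hardly pass it. Setting values below background to that level could not move these 12. It gave infinite prior degrees of freedom, so its p-values were not used.

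Over all probe sets, limma's adjusted counts stayed at 0 in both directions except for 5 higher and 0 lower, no member among them, when the dimmer part, below the median level, was left untested. At an unadjusted p under 0.05, 1350 were higher and 1159 lower. With the replicate number as a block the adjusted counts were 0 and 0; the deviations of arrays with the same number correlated negatively (r = -0.42 over probe sets). A block that crosses the numbers, tried on that account and chosen after seeing the data, also gave 0 and 0.

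The count of members with both SIN1 KO arrays lower, 10, was 9 (without Sparc 1448392_AT) with arrays scaled to the hybridisation controls, 11 with cyclic loess, and 11 to 13 when an array was left out, which loosens the rule. The count with both higher, 0, was 1 (Lox 1448228_AT, at background) under that scaling and 0 to 3 with left-out arrays: 3 without wild type 1 and 2 without SIN1 KO 1. The median difference of the 16 probe sets, -0.78, was -0.46 under that scaling and -1.06 to -0.65 with left-out arrays. By gene, the Fn1 difference of -1.55 over both probe sets was -0.85 with the one of higher mean and -2.26 with the other. Background rests on the brightest control of each array; with the 95th percentile of those controls in its place, the number of members above background on all arrays was again 12.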
